A study of Mus musculus with 4 samples.

Results

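Myeloid C-type lectin receptors are surface proteins with which macrophages, dendritic cells and neutrophils bind sugars and lipids of microbes and of damaged cells. Clec4d, Clec4e and Clec4n signal through the Fc receptor gamma chain, the kinase Syk and the adaptor Card9 towards NF-kB, whereas Clec12a carries an inhibitory motif that recruits phosphatases. Mrc1, the mannose receptor, and the galactose-type lectins Mgl2 and Clec10a take up glycoproteins and are widely used as markers of alternatively activated macrophages and of some dendritic cells. Clec9a recognises actin filaments exposed by dead cells, and Cd209a is a mouse relative of the human lectin DC-SIGN.

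The 10 genes Mgl2, Clec10a, Mrc1, Clec4d, Clec4e, Clec4n, Clec7a, Clec12a, Clec9a and Cd209a were chosen by name, and 9 of the 10 are described from counts. Clec7a, the beta-glucan receptor Dectin-1, was not analysed here. Each of 4 single-cell RNA libraries came from tumors of 3 pooled mice, taken from WT or Lrrc25-/- animals. B16F10 melanoma was harvested on day 14 and MC38 colon carcinoma on day 26. Bead-isolated CD45+ cells were combined 5 to 1 with unsorted cells, so shares of cells are not those of the tumor. Because 1 library stands for each genotype and model, a difference within a model has no replicate check, and mice within a pool cannot be separated.

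After filtering, 9319 cells of WT B16F10, 11543 of Lrrc25-/- B16F10, 15792 of WT MC38 and 15309 of Lrrc25-/- MC38 were kept, with median depths of 9675, 5407, 4341 and 5467 UMIs per cell. Pairs of libraries shared between 96 and 247 cell barcodes. Lrrc25 itself, measured in macrophages, stood at 158 counts per 1000000 (CPM) in WT B16F10 and 4.90 in Lrrc25-/- B16F10, and at 94.1 in WT MC38 and 2.04 in Lrrc25-/- MC38, which matched the labels. Classes were set from marker genes that include none of the lectins. A level is the UMIs of a gene per 1000000 UMIs of the class, and its 95% exact Poisson interval covers counting error only. Macrophages, recognised by complement C1q and related genes, were divided by their own markers into cycling cells, cells with the monocyte genes Ly6c2 or Plac8, Arg1+ cells, Cxcl9+ cells, the other C1q+ cells and a small C1q-low remainder. The 12 markers of type 2 conventional dendritic cells (cDC2) summed to between 2062 and 2622 CPM in that class and to between 76.5 and 150 CPM in macrophages. These markers also set the class, so the gap follows from the gate and is no check of purity. Between 11.8% and 36.8% of the kept cells of a library fell in no class, and between 5.69% and 9.29% lay near a cut.

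The genes lie on 4 chromosomes of GRCm38 (GENCODE M21). Clec4n (chr6:123229843-123247021), Clec4d (chr6:123262111-123275265) and Clec4e (chr6:123281789-123289870) are consecutive members of the set, and Clec4d and Clec4e are 6.52 kb apart. Clec12a (chr6:129342691-129365303) and Clec9a (chr6:129408862-129424763) lie on the same chromosome, 6053 kb beyond Clec4e. Mgl2 (chr11:70130329-70137550) and Clec10a (chr11:70156197-70170834) are 18.6 kb apart, Mrc1 spans chr2:14229392-14332057 and Cd209a chr8:3743397-3748984. Of the distinct 60-base words in the last 500 bases of Clec10a transcripts, 13.1% also occurred in Mgl2 transcripts, so a minority of reads could be divided uncertainly between this pair. For Clec4d, Clec4e, Clec12a, Mrc1 and Cd209a no such word occurred in another gene.

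Clec4d and Clec4e had like patterns over classes and libraries, and Mgl2 was lower in Lrrc25-/- macrophages of both models, so the bases just upstream of these starts are shown, 5′ to 3′ on the gene's strand, from RefSeq for GRCm38.p6. The windows are chr6:123261857-123262106 (plus strand), chr6:123289872-123290121 (minus strand) and chr11:70130107-70130328 (plus strand). Capitals mark matches on either strand to GAGGAAGT (PU.1), TTGCNNAA (C/EBP), TGANTCA (AP-1) or TATAAA.
Clec4d: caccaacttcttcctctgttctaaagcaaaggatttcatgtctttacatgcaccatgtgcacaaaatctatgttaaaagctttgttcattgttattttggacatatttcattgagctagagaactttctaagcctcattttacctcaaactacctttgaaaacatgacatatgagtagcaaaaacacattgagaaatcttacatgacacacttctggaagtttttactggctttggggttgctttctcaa
Clec4e: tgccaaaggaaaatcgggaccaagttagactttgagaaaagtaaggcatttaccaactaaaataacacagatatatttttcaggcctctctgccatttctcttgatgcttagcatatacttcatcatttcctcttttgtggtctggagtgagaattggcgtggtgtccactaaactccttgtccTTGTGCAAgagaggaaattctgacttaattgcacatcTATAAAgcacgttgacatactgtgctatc
Mgl2: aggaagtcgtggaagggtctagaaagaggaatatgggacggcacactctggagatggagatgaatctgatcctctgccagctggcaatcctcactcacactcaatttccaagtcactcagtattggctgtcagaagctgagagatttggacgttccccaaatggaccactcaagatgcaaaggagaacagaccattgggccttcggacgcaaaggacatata
The Clec4e window held 1 C/EBP match, whose first base lay 66 bases before the start, and 1 TATAAA match at 29 bases. Of 32851 promoters of 250 bases, 9.56% held the C/EBP pattern, 12.4% TATAAA, 6.75% the AP-1 pattern and 2.44% the PU.1 pattern. The Clec4d and Mgl2 windows held none of these letters, and RefSeq windows were found for 8 of the 10 genes.

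Among the activating receptors, Clec4d (MCL) and Clec4e (Mincle), which pair to sense glycolipids, were highest in neutrophils. Clec4d stood at 1903 CPM in WT B16F10, 3531 in Lrrc25-/- B16F10, 3540 in WT MC38 and 2866 in Lrrc25-/- MC38 neutrophils. Clec4e stood at 1681, 2678, 2947 and 2391 CPM in the same libraries. Monocytes came next for Clec4e in every library, at 959, 1197, 641 and 461 CPM. In macrophages the level depended on the subset. Arg1+ macrophages of B16F10 held 1194 (WT) and 1425 (Lrrc25-/-) CPM of Clec4d, against 229 and 193 in Cxcl9+ macrophages. T cells, which should lack Clec4d, held 95.6, 33.5, 9.41 and 16.8 CPM in the 4 libraries, the highest in WT B16F10.

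Clec4n (Dectin-2), a receptor of fungal mannans, was spread more evenly than Clec4d over macrophages, monocytes and cDC2. Its levels in macrophages were 357, 379, 396 and 513 CPM in the order WT B16F10, Lrrc25-/- B16F10, WT MC38 and Lrrc25-/- MC38. The cDC2 held 394, 267, 338 and 259 CPM in that order. In Lrrc25-/- MC38 this was below every macrophage subset, which held 393 to 598 CPM, and in Lrrc25-/- B16F10 it was level with the lowest subset, the cycling cells (267 CPM).

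**Figure D1:**
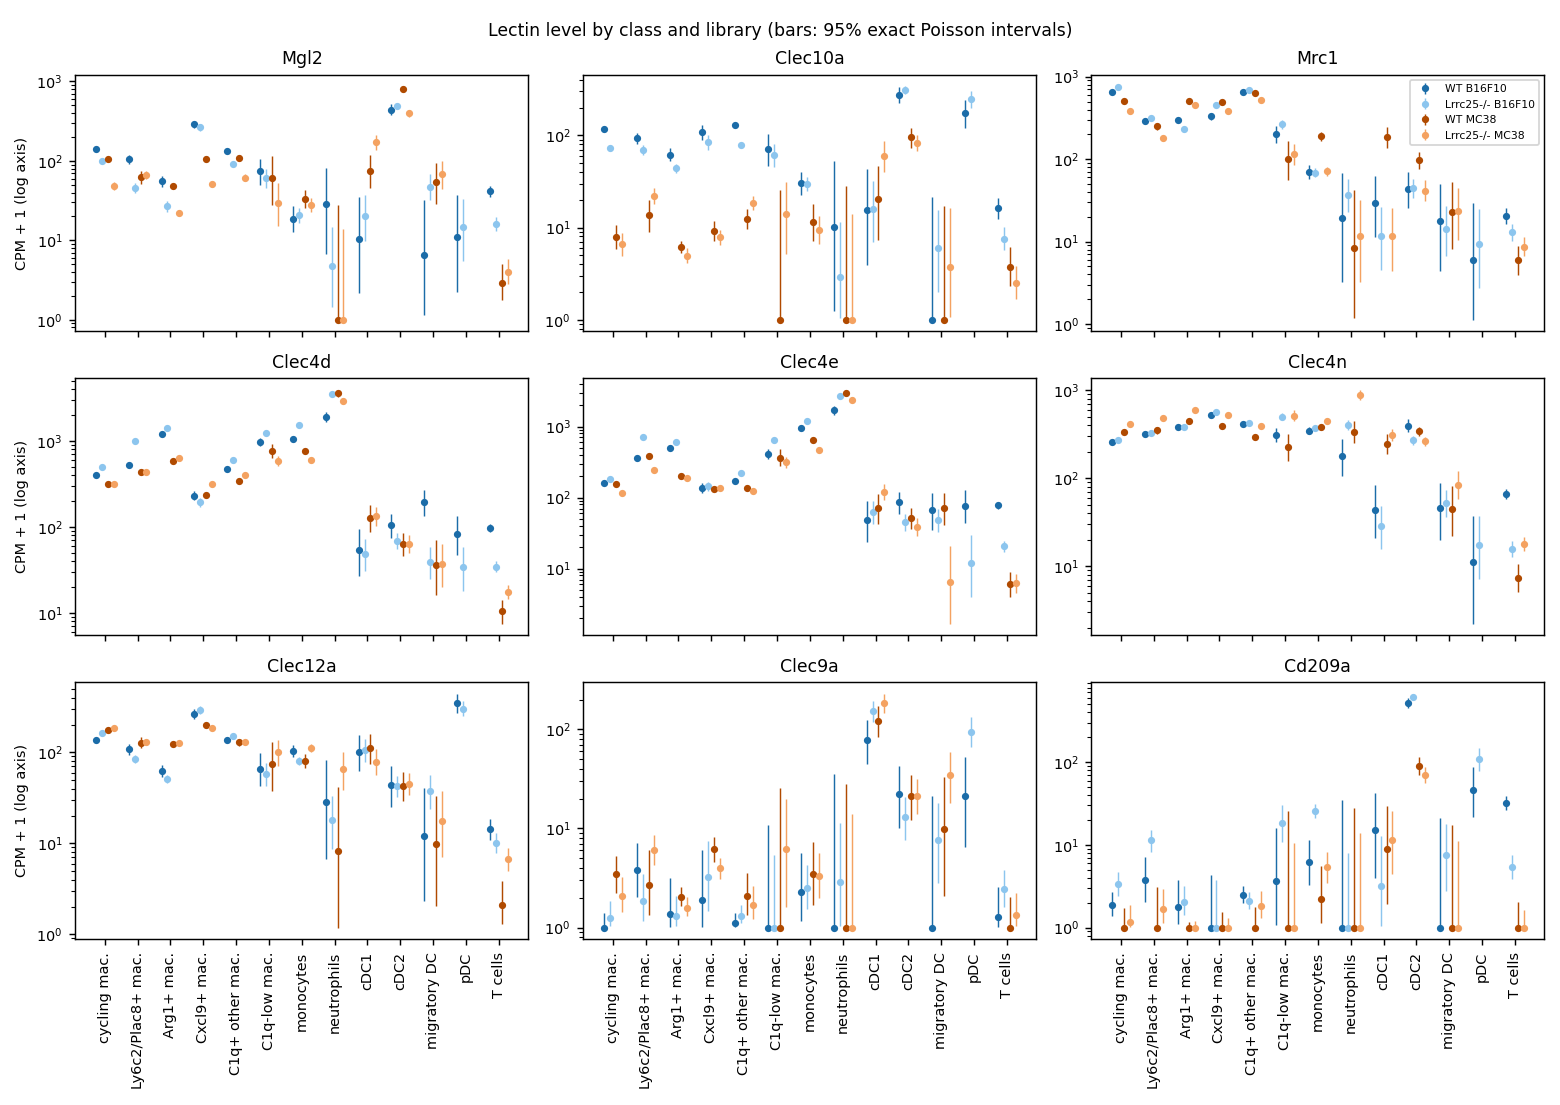
Level of each lectin (CPM plus 1, log axis) in each myeloid class and in T cells, 1 point per library with its 95% exact Poisson interval; classes under 20 cells are left out. Clec4d and Clec4e peak in neutrophils, Cd209a in cDC2 and Clec9a in cDC1, while Mrc1 is highest in macrophages.

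Mrc1 was a macrophage gene in all 4 libraries. All macrophages held 586, 572, 510 and 408 CPM, and monocytes 69.3, 67.5, 187 and 69.9 CPM. Clec12a, the inhibitory receptor, was highest in plasmacytoid dendritic cells of B16F10 tumors, at 344 CPM (WT, 60 cells) and 301 CPM (Lrrc25-/-, 97 cells), although their intervals overlapped those of Cxcl9+ macrophages in both libraries. Among macrophage subsets it was highest in Cxcl9+ cells in 3 libraries, at 264, 294 and 197 CPM, and in Lrrc25-/- MC38 the cycling subset (186 CPM) and Cxcl9+ cells (185 CPM) did not differ beyond counting error.

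The remaining lectins had their highest levels in dendritic cells. Mgl2 was highest in cDC2, at 442, 493, 801 and 396 CPM, and so was Cd209a, at 519, 621, 89.8 and 69.7 CPM. Clec10a was also highest in cDC2, at 274, 307, 94.2 and 82.1 CPM. Clec9a was highest in cDC1, conventional dendritic cells of type 1, at 76.3, 152, 121 and 183 CPM. Only 23, 46, 38 and 51 cDC1 were found, so no genotype comparison was made there. Although cDC2 had the highest level, macrophages were so numerous that they held 89.7%, 78.4%, 81.5% and 75.6% of the Mgl2 UMIs of all gated cells. They held 90.8%, 79.4%, 73.7% and 71.8% of the Clec10a UMIs and 22.2%, 9.88%, 59.4% and 38.5% of the Clec9a UMIs, but at most 10.8% of those of Cd209a.

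The pattern of each lectin was compared over 56 points, each a class in 1 library, with genes of at least 20 CPM at 1 point or more. The markers that set the classes were left out, so none of them could be the best match. Points share libraries and depth, so r is a description. Clec4e was most like Cxcl2 (Pearson r = 0.95) and Clec4d (r = 0.94), and Clec4d was most like Cd14 and Cxcl2 (r = 0.95 and 0.95). Mrc1 was most like Ms4a14 (r = 0.93), Mgl2 like Ifi30 (r = 0.89) and H2-Ab1 (r = 0.82), and Cd209a like its relative Cd209d (r = 0.84). Clec10a was most like Pltp (r = 0.79), Clec4n like Cd300c2 (r = 0.93), Clec12a like Psap (r = 0.88) and Clec9a like Kynu (r = 0.85).

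Within macrophages thinned to 1000 UMIs per cell, the share with Clec4d was lower among cells with Mgl2 than among cells without it in each library. Of WT B16F10 macrophages with Mgl2, 19.8% had Clec4d, against 34.9% of those without Mgl2. The shares were 30.6% and 43.2% in Lrrc25-/- B16F10, 19.1% and 33.3% in WT MC38, and 20.5% and 31.6% in Lrrc25-/- MC38. Clec4d and Clec4e went the other way, with Clec4e in 20.8% of WT B16F10 macrophages with Clec4d and 10.8% of those without. In the other 3 libraries the shares with and without Clec4d were 26.8% and 15.9%, 16.5% and 11.7%, and 14.7% and 10.5%.

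Mgl2 was lower in Lrrc25-/- than in WT macrophages in both tumor models. Its level was 131 CPM (interval 128 to 135) in WT and 82.3 CPM (79.5 to 85.1) in Lrrc25-/- macrophages of B16F10, and 72.2 CPM (69.5 to 74.9) and 41.6 CPM (39.8 to 43.5) in MC38. The share of macrophages with at least 1 Mgl2 UMI was 36.2% and 24.3% in B16F10 and 15.2% and 10.5% in MC38. At 1000 UMIs per cell these shares were 9.85% and 6.39%, and 5.31% and 3.01%. The intervals of the genotypes did not overlap in either model.

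The same comparison was made in every class by a rule of size, namely 1.5-fold or more after adding 1 CPM, with at least 20 CPM in 1 of the 2 libraries and at least 50 UMIs summed over them. In all macrophages of B16F10, 3 of the 7 lectins that could be measured passed it, when 4.10% of 4688 genes did. Mgl2 and Clec10a were lower and Clec4e was higher. In MC38, 1 of 6 lectins passed, Mgl2, when 3.30% of 5762 genes did. The median log2 fold of the lectins was 0.01 in B16F10 and -0.08 in MC38, beside 0.03 and -0.01 over all genes that could be measured.

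Across both models, with the model as a term, edgeR's quasi-likelihood test gave Mgl2 a log2 fold of -0.74 (SE 0.14) in all macrophages with an unadjusted p of 0.00143 and a Benjamini-Hochberg adjusted p of 1.00. None of the 9 lectins was called in all macrophages, where 0.00666% of 15011 genes were, and 1 lectin had an unadjusted p under 0.05. Between genotypes DESeq2 called 0 lectins in all macrophages, monocytes, neutrophils and cDC2. Of all genes it called 5 of 23140, 2 of 17434, 4 of 13043 and 1 of 15219 there, in that order. Each edgeR SE given here is the size of the log2 fold divided by the square root of the F statistic. It is not a spread measured between replicate libraries. In Arg1+ macrophages the test called 1 of 7 lectins, Mgl2, when 0.105% of 12410 genes were called. Its log2 fold there was -1.12 (SE 0.18; edgeR adjusted p = 0.00612), lower in both models. The levels were 54.4 CPM in WT and 25.8 in Lrrc25-/- B16F10, and 47.9 in WT and 21.02 in Lrrc25-/- MC38. The test has 1 residual degree of freedom, and the edgeR call was lost without TMM scaling (adjusted p = 0.266), with no model term (adjusted p = 1.00) and with DESeq2 (adjusted p = 0.371). Of all genes, 3 of 12410, 0 of 12410 and 7 of 20945 were called under these settings. With no model term no gene was called, so that loss is not particular to Mgl2. The log2 folds of Mgl2 under these settings were -1.14, -1.11 and -1.11. Over all alternatives the adjusted p of Mgl2 ran from 3.17e-05, with no filter on low counts, to 1.00.

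**Figure D2:**
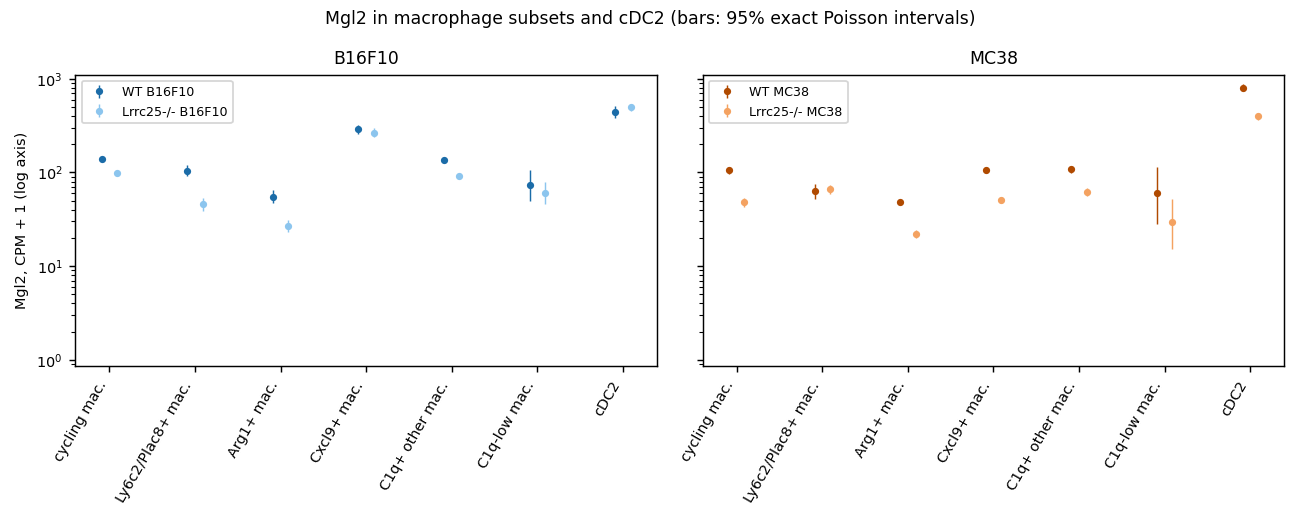
Mgl2 (CPM plus 1, log axis) in macrophage subsets and cDC2 of B16F10 (left) and MC38 (right) tumors, WT and Lrrc25-/-, with 95% exact Poisson intervals. In Arg1+ macrophages Mgl2 is 54.4 against 25.8 CPM in B16F10 and 47.9 against 21.02 CPM in MC38.

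Mgl2 was below its WT level in 6 of 6 macrophage subsets of B16F10 and in 4 of the 5 compared in MC38. It passed the rule of size in 2 of the 6 B16F10 subsets and in 4 of the 5 MC38 subsets. In C1q-low cells of B16F10 the interval of the Lrrc25-/- to WT ratio was 0.51 to 1.37. Cycling macrophages held 139 CPM in WT and 98.8 in Lrrc25-/- B16F10, and 104 and 47.1 in MC38. In Cxcl9+ macrophages, the subset richest in Mgl2 in B16F10, the genotypes overlapped within counting error in B16F10 (288 and 265 CPM) and stood apart in MC38 (106 and 50.3 CPM). The exception was the Ly6c2/Plac8+ C1q+ subset of MC38, with 61.8 CPM in WT and 65.1 in Lrrc25-/-. The log2 folds ran from -1.19 to -0.12 in B16F10 and from -1.15 to 0.07 in MC38. When both genotypes were given the same mix of subsets, the log2 fold of Mgl2 over all macrophages was -0.56 in B16F10 and -0.96 in MC38, beside -0.67 and -0.78 with each library's own mix; the B16F10 value then missed the 1.5-fold rule.

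T cells also held less Mgl2 in the Lrrc25-/- B16F10 library, 15.0 against 40.7 CPM, but not in MC38, where they held 3.02 against 1.94 CPM. The 12 markers of cDC2, the class richest in Mgl2, summed to 76.5 CPM in WT and 76.9 in Lrrc25-/- macrophages of B16F10 and to 130 and 150 in MC38; 6 of 12 were lower in Lrrc25-/- in B16F10 and 3 of 12 in MC38, and none was at 0 in every library. The part of RNA from outside the cells in the B16F10 difference was not tested.

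Clec10a, the neighbour of Mgl2, was lower in Lrrc25-/- macrophages of B16F10, at 69.3 against 115 CPM. In MC38 macrophages it was at 6.93 CPM in WT and 8.51 in Lrrc25-/-, below the level needed for the rule. In Ly6c2/Plac8+ C1q+ macrophages of MC38, the 1 subset there in which it could be measured, Clec10a was higher and passed the rule, at 12.6 CPM (22 UMIs) in WT and 21.1 in Lrrc25-/-. It was lower in 6 of 6 B16F10 subsets, with log2 folds from -0.71 to -0.22, and passed the rule in 2 of them. The edgeR fit gave a log2 fold of -0.26 (SE 0.26) over both models. In monocytes of B16F10 it was 29.4 and 28.7 CPM, and in cDC2 274 and 307 CPM.

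Clec4n was higher in neutrophils of both models. It was at 175 CPM (19 UMIs) in WT and 401 in Lrrc25-/- neutrophils of B16F10, and at 336 (46 UMIs) and 879 CPM in MC38. In B16F10 neutrophils all 3 measurable lectins passed the rule of size, when 46.6% of 1402 genes did, and in MC38 1 of 3 did, when 29.4% of 1352 did. The edgeR log2 fold of Clec4n was 1.24 (SE 0.57, adjusted p = 0.997), and 0 of 3 lectins were called, when 0.184% of 2724 genes were; 1 of 3 had an unadjusted p under 0.05. Markers of other cells moved with Clec4n in MC38 neutrophils. The 10 monocyte markers summed to 746 CPM in WT and 1793 in Lrrc25-/- (9 of 10 higher), and the 11 macrophage markers to 673 and 1034 CPM (10 of 11 higher). In B16F10 neutrophils the same sums were 1330 and 1194 CPM for monocyte markers and 1487 and 1622 CPM for macrophage markers. No marker of either list was at 0 in every library, and the part of other cells or their RNA in the Clec4n difference was not tested. Neutrophils were shallow, with median depths of 1105 to 1373 UMIs.

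In macrophages Clec4n was 1.29-fold higher in Lrrc25-/- MC38 (interval 1.27 to 1.32) and 1.06-fold higher in B16F10. It was above WT in 6 of 6 subsets of B16F10 and 5 of 5 of MC38, though only 1 of these passed the rule, the C1q-low subset of B16F10. Clec4d and Clec4e differed between models. Clec4e was higher in Lrrc25-/- macrophages of B16F10, at 324 against 207 CPM, and was 162 against 183 CPM in MC38; with a common mix of subsets its B16F10 log2 fold went from 0.65 to 0.41, under the rule. Clec4d was 751 against 508 CPM in B16F10, just under the threshold after the added 1 CPM, and 461 against 457 CPM in MC38.

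**Figure D3:**
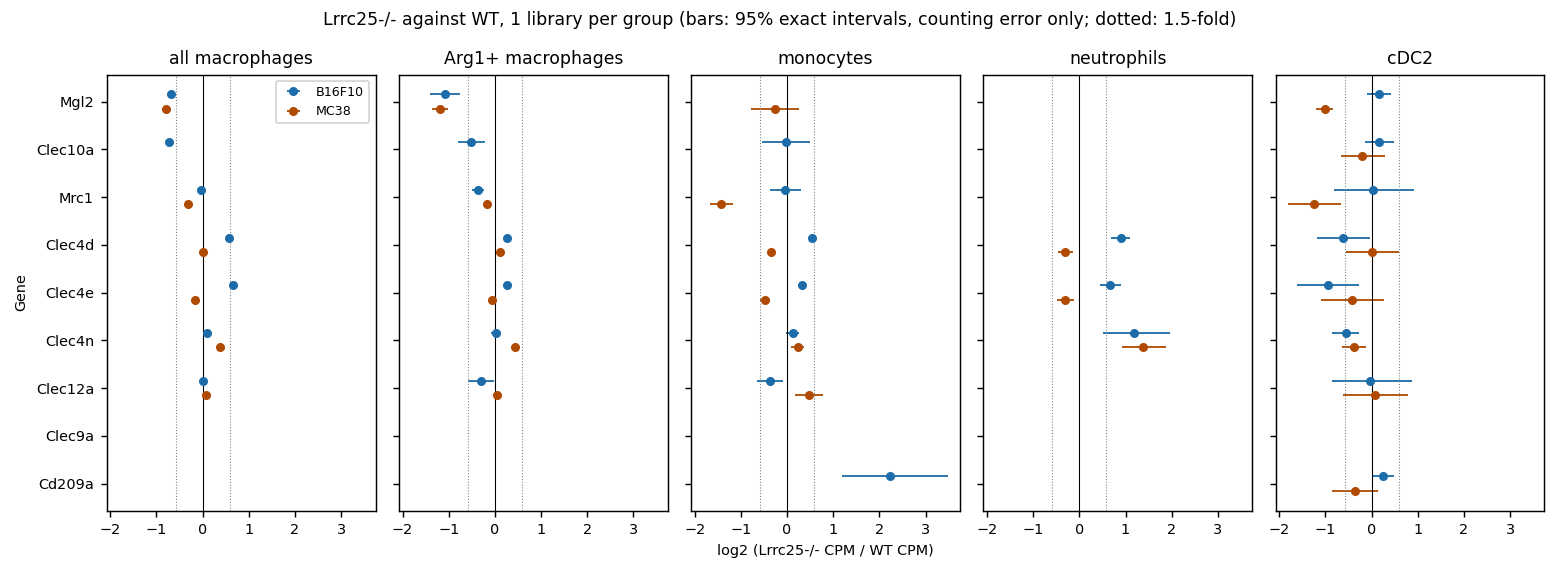
Log2 ratio of the Lrrc25-/- to the WT level per lectin in 5 classes, blue for B16F10 and orange for MC38, with 95% exact intervals of counting error; dotted lines mark 1.5-fold and lectins too low to measure are left out. Mgl2 is left of 0 in macrophages of both models, and Clec4n is right of 0 in neutrophils of both.

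Mrc1 and Clec12a passed the rule in no macrophage subset of either model. Mrc1 was below WT in 5 of 5 MC38 subsets, with log2 folds from -0.48 to -0.18, and above WT in 5 of 6 B16F10 subsets. Over all macrophages edgeR gave Mrc1 a log2 fold of -0.18 (SE 0.19) and Clec12a 0.04 (SE 0.16). Clec12a stood at 132 and 133 CPM in WT and Lrrc25-/- macrophages of B16F10 and at 142 and 149 in MC38, so its genotypes differed by less than the size the rule asks for.

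In monocytes 1 of 7 lectins passed the rule in B16F10, when 13.9% of 4432 genes did, and 1 of 6 in MC38, when 11.9% of 5745 did. Cd209a was 24.5 CPM in Lrrc25-/- and 5.23 in WT monocytes of B16F10, the latter from 8 UMIs. The 98 Lrrc25-/- UMIs lay in 24 of 704 cells, and the WT UMIs in 3 of 298. With cells thinned to equal depth, 0.86% of Lrrc25-/- and 0.67% of WT monocytes of B16F10 had a Cd209a UMI. The B16F10 difference in level therefore rests on few cells. In MC38 monocytes Cd209a was too low for the rule, at 4.39 CPM (15 UMIs) in Lrrc25-/- and 1.24 CPM (2 UMIs) in WT. Mrc1 was 69.9 in Lrrc25-/- and 187 CPM in WT monocytes of MC38, whereas in B16F10 it was 67.5 and 69.3 CPM. In edgeR 0 of 8 lectins were called in monocytes, when 0.0653% of 9194 genes were, and 2 of 8 had an unadjusted p under 0.05.

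In cDC2, 2 of 8 lectins passed in B16F10, when 20.3% of 3037 genes did, and 2 of 8 in MC38, when 12.9% of 4491 did. Clec4d (104 and 67.3 CPM in WT and Lrrc25-/-) and Clec4e (85.2 and 44.0) were lower in B16F10. Mgl2 (801 and 396) and Mrc1 (95.6 and 40.6) were lower in MC38, while Mgl2 in B16F10 cDC2 was 442 in WT and 493 in Lrrc25-/-. EdgeR called 0 of 9 lectins in cDC2, when 0.0865% of 6939 genes were called, and 2 of 9 had an unadjusted p under 0.05. The Clec4d difference changed direction with 3 other settings (log2 folds of 0.059, 0.56 and 0.90).

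Genes around the lectins were read from lists by the same rule. The lists were chosen with earlier results of these data known, so their counts are descriptions. Of 13 measurable genes listed as products of Syk and Card9 signalling, 8 were higher and none lower in Lrrc25-/- macrophages of B16F10. Of all genes 3.24% were higher and 0.853% lower. The median log2 fold of the list was 0.65 beside 0.03 over all genes. Which signal lay behind these genes was not tested. By subset, 14 of 15 were higher in Ly6c2/Plac8+ C1q+ cells, when 10.7% of all genes were. In Arg1+ cells 7 of 14 were higher (6.56% of all genes), and in C1q-low cells 5 of 11 (12.6%). In cycling cells 3 of 12 were higher and 1 lower (3.21% and 1.15% of all genes). In the other C1q+ cells 1 of 12 was higher (2.38%). In Cxcl9+ cells 0 of 12 were higher and 2 lower (9.13% and 3.18%). Both the counts and the shares of all genes differed between subsets. Cxcl2, a neutrophil-attracting chemokine, went from 5695 to 10209 CPM and Ptgs2, the inducible cyclooxygenase, from 61.0 to 139. In MC38 macrophages 1 of 11 was higher and 4 were lower, when 0.798% and 2.50% of all genes were, with a median of -0.37 beside -0.01. Il10, an anti-inflammatory cytokine, went from 197 to 334 CPM in B16F10 and from 48.8 to 20.2 in MC38. Of the IL-4 and alternative activation list, 6 of 16 were higher in B16F10 macrophages, among them Arg1 (313 to 850 CPM) and Retnla (17.2 to 45.0), while 1 of 12 was higher and 3 were lower in MC38, among them Arg1 (2505 to 1505 CPM). Mgl2, often read with these genes, was lower in both models. Arg1 also sets the gate of the Arg1+ subset, so its level follows the mix of subsets. That subset held 341 of 3696 WT and 748 of 4131 Lrrc25-/- macrophages in B16F10. In MC38 it held 4393 of 8393 and 2811 of 8272. The part of the subset mix in the counts of this list was not tested. Among the lectins' adaptors and kinases 1 of 14 was higher in B16F10 macrophages, Fgr (12.05 to 20.92 CPM).

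Clec10a and Cd209a were lower in MC38 than in B16F10 tumors, in macrophages and in cDC2. In all macrophages edgeR called 7 of 9 lectins between models, when 60.1% of 15011 genes were called, and in cDC2 5 of 9, when 43.1% of 6939 were. Clec10a had a log2 fold of -3.92 (SE 0.28) in MC38 against B16F10 macrophages (edgeR adjusted p = 0.000137), from 115 to 6.93 CPM in WT and from 69.3 to 8.51 in Lrrc25-/-. Cd209a had -4.67 (SE 0.70), although at most 2.49 CPM in any macrophage library. In cDC2 the log2 folds were -2.25 (SE 0.27; edgeR adjusted p = 8.89e-06) for Clec10a and -3.37 (SE 0.27; edgeR adjusted p = 1.76e-07) for Cd209a. Mgl2 in cDC2 had -0.26 (SE 0.26). When cells were clustered instead, cDC2 of the models fell mostly in different clusters. A cluster led by Cd209a held 103 WT and 322 Lrrc25-/- cells of B16F10, and 3 and 10 of MC38. A cluster led by Plet1 held 0 and 8 cells of B16F10, and 241 and 285 of MC38. Whether the gated cDC2 are the same kind of cell in both models was not tested.

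TMM scaling moved every log2 fold between models by -0.39 in macrophages and -0.52 in cDC2. Without it 4 of 9 lectins were called in macrophages (Mgl2, Clec10a and Cd209a lower and Clec9a higher in MC38) and 2 of 9 in cDC2 (Clec10a and Cd209a lower), and Clec4n and Clec12a in macrophages changed sign, from -0.10 to 0.29 and from -0.26 to 0.13. Model, harvest day and host sex cannot be told apart: Xist in macrophages was at most 0.0302 CPM in B16F10 libraries and at least 652 CPM in MC38 libraries.

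**Figure D4:**
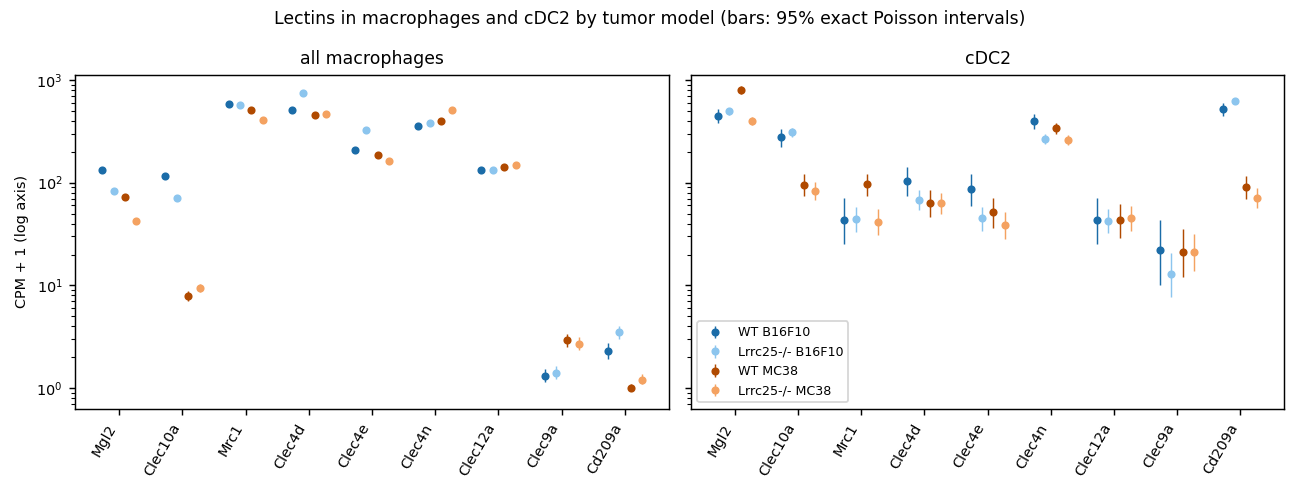
Level of each lectin (CPM plus 1, log axis) in all macrophages (left) and cDC2 (right), 1 point per library with its 95% exact Poisson interval. Clec10a and Cd209a lie lower in both MC38 libraries than in both B16F10 libraries in each class.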

How the data were processed

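Single-cell 3' RNA libraries (SeekOne Digital Droplet kit) were deposited as raw counts, whole UMIs per gene and cell barcode; the authors' genome was mm10, per the submitters' processing notes, and the aligner, the counter and how cells were called were not given in the sources used here. Barcodes with at least 500 UMIs and 300 genes and at most 20% mitochondrial UMIs were kept. Scrublet's own threshold marked 0% of 3 libraries, so the highest scores were removed instead, at 0.5% of cells per 1000. Cells were classed by scores over marker lists, with the scoring rule set after the data were seen (score at least 0.4, lead of 0.1 over the next class, at least 3 markers); clusters (scanpy 1.11.5, Leiden resolution 2) served as an alternative. UMIs were summed per class and library. EdgeR 4.0.16 tested the sums over 4 libraries with model as a term, filterByExpr and TMM scaling, Benjamini-Hochberg adjusted over all genes; DESeq2 1.42.0 was an alternative. The 4 total counts ran from 105338548 to 138841749 UMIs. The edgeR script was tested on simulated data. Shares of cells have exact Clopper-Pearson intervals. The lectins and gene lists were chosen with earlier results of these data known. Genes named are the lectins, up to 6 per list past the rule of size, and up to 3 genes most like each lectin outside the class markers.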

Additional observations from a re-analysis of the deposited data

Results flagged for a closer look

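Clec4e in Ly6c2/Plac8+ C1q+ macrophages passed the rule of size in opposite directions in the 2 tumor models. The log2 fold of Lrrc25-/- against WT was 0.94 in B16F10, from 364 to 700 CPM, and -0.64 in MC38, from 383 to 246 CPM. With 1 library per genotype and model the difference between the models was not tested.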

How the results depend on the processing

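Each difference within a model rests on 2 libraries, and its interval covers counting error alone. Over 11 settings the log2 fold of Mgl2 in all macrophages stayed between -0.83 and -0.56 in B16F10 and between -0.96 and -0.64 in MC38, and that of Clec10a in B16F10 between -0.84 and -0.65; with a common mix of subsets, added after the data were seen, Mgl2 in B16F10 (-0.56) missed the rule. Of 28 lectin folds past the rule in any class, 20 remained past it with classes from clusters and 24 with cells thinned to 1000 UMIs. In each of these settings 1 was reversed. The 28 count all macrophages beside their own subsets, so they are not separate results. Before these changes, 3.14% to 46.6% of all genes passed the rule, depending on the class and model. In Arg1+ macrophages 0 lectins in place of 1 were called with no scaling beyond the class total, with no model term and with DESeq2. Of all genes, 3 of 12410, 0 of 12410 and 7 of 20945 were called there, in that order. Leaving out 1 library leaves no residual degree of freedom and only the fold within the other model. For Mgl2 those log2 folds were -1.05 in B16F10 and -1.15 in MC38, the same differences as above, so they are no further check. In monocytes 1 lectin, Cd209a, was called across models with no filter on low counts, when 19 of 17434 genes were. Between models 4 lectins were called in macrophages and 2 in cDC2 without scaling, when 9162 of 15011 and 3379 of 6939 genes were. With DESeq2 2 lectins were called in cDC2, when 1104 of 15219 genes were.

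Counts of lectins past the rule of size also moved. The share of all genes past the rule under each setting is not given here, so no count is read as a result about the lectins. In B16F10 monocytes 2 passed with TMM or DESeq2 scaling. In MC38 monocytes 2 passed with no filter and 3 with thinned cells. With no filter 8 passed in B16F10 and 2 in MC38 neutrophils, among them lectins with almost no UMIs. In B16F10 neutrophils Clec10a had 1 UMI in WT and 1 in Lrrc25-/-, and Clec9a had 0 and 1. In B16F10 cDC2 1 passed with TMM, with DESeq2 factors, with no doublet removal, with at most 10% mitochondrial UMIs, with 1 more marker, with the mean of per-cell CPM and with thinned cells. Clec4d there reversed to 0.059 with 1 more marker, 0.90 with classes from clusters and 0.56 with thinned cells. In MC38 cDC2 4 passed with classes from clusters and 1 with thinned cells. The cause of these changes was not tested. The model term sets Lrrc25-/- against WT within each model; the labels give no replicate numbers.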

Other observations

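Plasmacytoid dendritic cells, compared in B16F10 alone because MC38 held 8 and 16 of them, had 4 UMIs of Clec9a in WT (20.2 CPM) and 34 in Lrrc25-/- (93.8 CPM), and 5.00% and 29.9% of these cells had a UMI. Clec9a was too low there for the rule of size, which asks for 50 UMIs. Clec10a in the same cells was 172 and 245 CPM, with a ratio interval of 0.95 to 2.19.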
